A study of Mus musculus with 26 samples.

Results

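The genes described here encode the subunits and some assembly factors of the mitochondrial respiratory chain and of ATP synthase. They were taken as every probe whose gene symbol starts with Nduf, Uqcr or Atp5, starts with Cox4, Cox5, Cox6, Cox7 or Cox8, or is Sdha, Sdhb, Sdhc or Sdhd. This rule found 107 probes for 85 of the 16593 genes on the array. Of these, 80 genes were among the 10660 genes detected on both arrays of at least 1 cell line, and these were tested. By complex, 38 of the 85 genes belong to complex I (Nduf), 3 to complex II (Sdh), 8 to complex III (Uqcr), 19 to complex IV (Cox and Ndufa4) and 16 to complex V (Atp5). The remaining symbol, Ndufs5-ps, is a pseudogene by its name. Sdha, Ndufa4l2 and the subunits encoded by mitochondrial DNA were not analysed here.

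Transcript levels were measured on Illumina BeadChip arrays in 13 mouse cell lines with 2 technical arrays each, and every value below is a mean log2 level of 1 line or a difference between groups of lines. All lines were of the OG2 background, a mouse strain that carries a green fluorescent reporter driven by the promoter of the pluripotency gene Oct4. The groups were induced pluripotent stem cells derived from germline stem cells (iPSC, 4 lines), a further 4 pluripotent lines of germline origin (gPSC), induced pluripotent stem cells derived from fibroblasts (Fib-iPSC, 1 line), the germline stem cells themselves (GSC, 2 lines), fibroblasts (Fibroblast, 1 line) and embryonic stem cells (ESC, 1 line). The factors used for reprogramming, the route to gPSC, the culture medium, feeder layers, passage and clonal origin are not given in the sources used here. The title of the series asks about memory of the source cell, so each reprogrammed group was set against its source and against ESC. The labels do not say whether lines came from separate animals, so p-values measure the spread between these lines.

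The labels were checked against marker genes. Mean log2 levels of 10 pluripotency markers were 10.43 to 10.87 in iPSC, 9.62 to 10.55 in gPSC, 9.61 in Fib-iPSC, 6.50 and 6.23 in GSC, 4.44 in Fibroblast and 10.58 in ESC. For 8 germline markers the means were 5.20 to 6.84 in iPSC, with the highest value in iPSC 3, 4.89 to 6.01 in gPSC, and 9.12 and 9.03 in GSC. For 11 fibroblast and feeder markers, the mean was 9.03 in gPSC 1 and 4.96 to 7.62 in the remaining 7 lines of those 2 groups, and Fibroblast had 8.47. Counts below are therefore also given without iPSC 3 and without gPSC 1. Between 12097 and 13808 probes were detected per array. Median raw intensities were 89.2 to 94.0 on both arrays of every iPSC line and on the b arrays of the other lines except Fibroblast, 100.1 to 102.9 on the a arrays of those lines, and 134.4 and 143.2 in Fibroblast, and the labels name no batch. A further model took these a arrays as a term and the line as a random block. It called 39 members in iPSC versus GSC and 40 in gPSC versus GSC, of which 38 each were among the 45 and 42 called below. In each comparison 19 members were higher, beside 24 and 22 below. Calls over all 10660 genes were 4954 and 4841, beside 4708 and 4516 below, so member calls fell while calls over all genes rose. In iPSC versus gPSC, 0 members and 1 of all genes were called. In such bulk samples, fewer cells of a type and less RNA per cell cannot be told apart.

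Complexes I and II pass electrons from NADH and succinate to ubiquinone, complex III passes them to cytochrome c, and complex IV passes them to oxygen. Complexes I, III and IV pump protons as they do so, and complex V uses the proton gradient to make ATP. Several subunits of complex IV exist as a widely expressed form and as a form made mainly in heart, muscle, lung or testis. Mouse pluripotent cells are known to combine respiration with high glycolysis, and germ cells are known for testis-type forms of mitochondrial proteins.

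Nearly all subunits were expressed in every line. The signal was detected on all 26 arrays for 75 of the 80 tested members, compared with 6365 of all 10660 genes. The 5 untested members were Ndufs1 and Uqcrq, detected on no array, Cox8b on 1, Atp5k on 3 and Uqcrfs1, the Rieske iron-sulfur protein of complex III, on 6. Among the 10 pluripotent lines (iPSC, gPSC, Fib-iPSC and ESC), members ranged less than other genes: the range over lines had a median of 0.51 log2 units, against 0.76 for all genes. That range exceeded 1 log2 unit for 7 members (8.75%) and for 3436 of all genes (32.2%). The 7 were Cox7a1 (2.71), Cox6b2 (1.44), Cox8c (1.43), Ndufb10 (1.29), Cox4i2 (1.20), Atp5e (1.05) and the assembly factor Ndufaf3 (1.03). Tissue-type forms of complex IV among them were Cox7a1, Cox6b2, Cox8c and Cox4i2, but not all of these ranges rest on detected values. Cox4i2 was detected on 6 iPSC arrays alone and passed the filter through them, so its range runs down to undetected values. The lowest Cox8c value, 4.44 in gPSC 1, was not detected either.

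**Figure D1:**
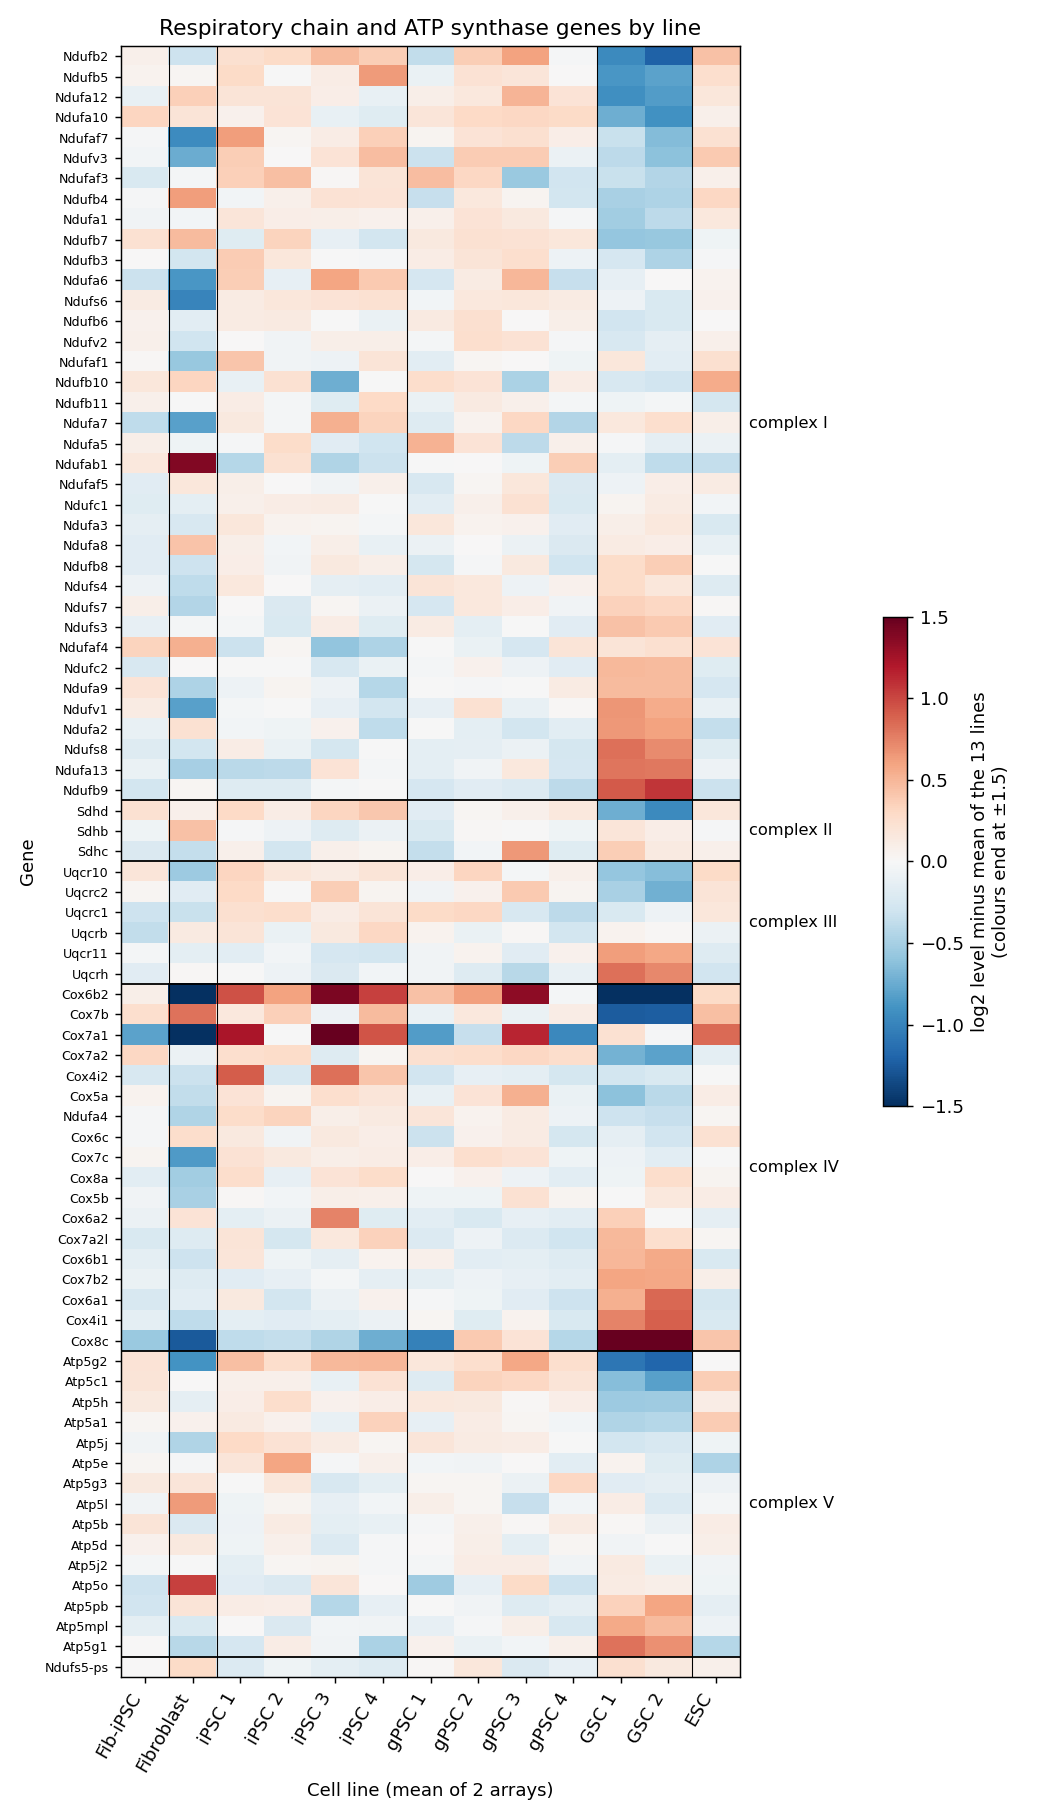
Log2 level of every tested member (rows, grouped by complex) in each of the 13 lines (columns, mean of 2 arrays), shown as the deviation from the mean over the lines. The 2 GSC columns stand apart from the iPSC and gPSC columns, with members above and below the mean in each complex, and Fibroblast has a pattern of its own.

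GSC differed from both germline-derived pluripotent groups in about as many members upwards as downwards. In iPSC, 24 of the 80 members (30%) were higher than in GSC and 21 (26.2%) were lower by limma at an adjusted p under 0.05, where 19.5% of all genes were higher and 24.6% were lower. In gPSC, 22 members (27.5%) were higher than in GSC and 20 (25%) were lower, where 17.9% of all genes were higher and 24.4% were lower. The 2 comparisons share the same 2 GSC lines, so they are given side by side and not as independent results. Differences of at least 2-fold were called for 8 of the 80 members in iPSC, 6 higher and 2 lower, where 22.8% of all genes were called in either direction. In gPSC there were 9, 7 higher and 2 lower, where 21.6% of all genes were called. In this model, the share of members called higher was thus above that of all genes and the share called lower was near it. Differences of at least 2-fold made up a smaller share than over all genes. With the a arrays as a term, as above, fewer members were called higher.

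The median difference over the members was 0.05 log2 units in iPSC minus GSC, against -0.02 over all genes, and 0.01 in gPSC minus GSC, against 0.01 over all genes. The middle of the set thus lay close to 0, with single subunits called in both directions. Among genes detected on all arrays, 43 of 75 members (57.3%) were called in iPSC, against 49.7% of all such genes, and 40 of 75 (53.3%) were called in gPSC, against 47.7%. Without iPSC 3, 43 members were called in iPSC, 24 higher and 19 lower, beside 4607 of all 10660 genes. Without gPSC 1, 45 were called in gPSC, 26 higher and 19 lower, beside 4412 of all genes. Leaving out a GSC line lowered the counts most, for the members and for all genes. Without GSC 1 or without GSC 2, 33 or 30 members were called in iPSC and 31 or 29 in gPSC. Calls over all genes fell from 4708 to 3075 or 3161 in iPSC and from 4516 to 2916 or 2961 in gPSC. In iPSC, 29 of the 45 calls held with each line left out in turn, and 16 ended without at least one of the GSC lines. These 16 were Ndufb3, Ndufb4, Ndufb7, Ndufs3, Ndufs6, Ndufs7, Ndufv3, Ndufaf4, Ndufaf7, Ndufs5-ps, Cox5a, Cox6a1, Cox6b1, Atp5a1, Atp5j and Atp5pb, with highest adjusted p-values of 0.0548 to 0.237 by limma. In gPSC, 28 of the 42 calls held and 14 ended in the same way, with highest adjusted p-values of 0.0561 to 0.212. These 14 were Ndufa9, Ndufb3, Ndufb6, Ndufb8, Ndufs3, Ndufv1, Ndufaf7, Uqcrc2, Ndufa4, Cox5a, Cox7a2l, Atp5a1, Atp5j and Atp5pb.

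**Figure D2:**
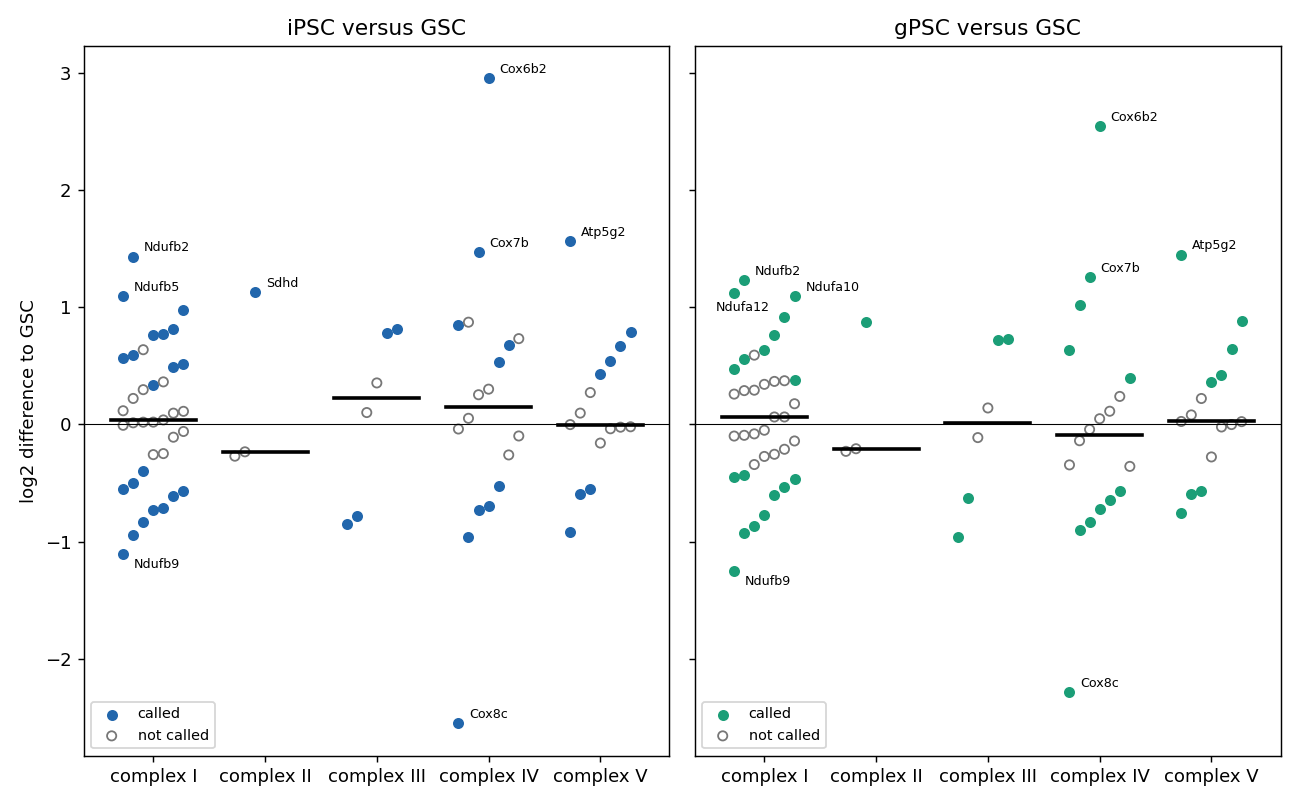
Log2 difference to GSC of every tested member of the 5 complexes (y axis) by complex (x axis), for iPSC in one panel and gPSC in the other, with called members filled, uncalled members open and the median of each complex as a bar. Calls lie above and below 0 in complexes I, III, IV and V, and the ends of the range are Cox6b2 (2.96 in iPSC, 2.55 in gPSC) and Cox8c (-2.55 in iPSC, -2.29 in gPSC).

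Complex I, which oxidises NADH, had 37 tested members. In iPSC 11 (29.7%) were higher and 10 (27%) lower than in GSC, where 19.5% of all genes were higher and 24.6% lower. In gPSC 9 (24.3%) were higher and 9 (24.3%) lower, where 17.9% of all genes were higher and 24.4% lower. Of 5 tested core subunits, most of which carry the flavin or iron-sulfur centres, 4 were lower in iPSC and 3 in gPSC, and none was higher, where 24.6% and 24.4% of all genes were lower. Ndufs8 alone was called in both groups with every line left out in turn. The Ndufs3 calls ended without GSC 1 or GSC 2, the Ndufs7 call in iPSC ended in 6 of the 13 cases with 1 line left out, and the Ndufv1 call in gPSC ended without GSC 1. Ndufv1, the subunit that binds NADH, stood at 11.43, 11.45, 11.33 and 11.17 in iPSC 1 to 4 and at 11.33, 11.68, 11.34 and 11.48 in gPSC 1 to 4, against 12.12 and 12.01 in GSC 1 and 2. No iPSC or gPSC line reached the GSC lines. The difference was -0.72 ± 0.13 (SE) in iPSC and -0.61 ± 0.13 in gPSC (limma, adjusted p = 0.00213 and 0.00542). Ndufs8, an iron-sulfur subunit near the ubiquinone site, was 10.15 to 10.53 in iPSC and 10.16 to 10.33 in gPSC, against 11.25 and 11.13 in GSC, with differences of -0.84 ± 0.12 and -0.93 ± 0.12 (limma, adjusted p = 0.000534 and 0.000314). Ndufs3, another core subunit, differed by -0.50 in iPSC and -0.46 in gPSC (limma, adjusted p = 0.0128 and 0.0187). For Ndufs7 the values were -0.40 and -0.34 (limma, adjusted p = 0.0403 and 0.0702), so it passed in iPSC alone. Ndufv2, which carries an iron-sulfur cluster next to Ndufv1, differed by 0.22 and 0.29 and passed in neither (limma, adjusted p = 0.161 and 0.0739).

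The accessory subunits of complex I, which surround the core, moved both ways. Ndufb2, in the membrane arm, stood at 8.54, 8.58, 8.77 and 8.66 in iPSC and at 7.92, 8.66, 8.90 and 8.27 in gPSC, against 7.33 and 7.08 in GSC. Its difference was 1.43 ± 0.24 in iPSC and 1.23 ± 0.24 in gPSC (limma, adjusted p = 0.00108 and 0.00258). Ndufb5, also of the membrane arm, was 8.90 to 9.55 in iPSC and 8.81 to 9.13 in gPSC, against 8.03 and 8.10 in GSC, with differences of 1.10 ± 0.18 and 0.92 ± 0.18 (limma, adjusted p = 0.000938 and 0.00266). Ndufb9, a membrane-arm subunit of the LYR family, went the other way. It stood at 9.01, 9.01, 9.17 and 9.20 in iPSC and at 8.95, 9.04, 9.002 and 8.81 in gPSC, against 10.12 and 10.28 in GSC. The difference was -1.10 ± 0.11 in iPSC and -1.25 ± 0.11 in gPSC (limma, adjusted p = 6.54e-05 and 3.36e-05).

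Ndufa12, an accessory subunit related to an assembly factor, was 9.18 to 9.49 in iPSC and 9.38 to 9.80 in gPSC, against 8.37 and 8.45 in GSC. It was higher by 0.98 ± 0.14 in iPSC and 1.12 ± 0.14 in gPSC (limma, adjusted p = 0.000542 and 0.000262). Ndufa10, whose fold resembles nucleoside kinases, was 10.13 to 10.52 in iPSC and 10.50 to 10.62 in gPSC, against 9.58 and 9.40 in GSC. The groups did not overlap for either gene. Ndufa13, also known as Grim19, differed by -0.95 in iPSC and -0.87 in gPSC (limma, adjusted p = 0.00291 and 0.00483), and Ndufa9 by -0.61 and -0.45 (limma, adjusted p = 0.0053 and 0.0242). The X-linked subunits Ndufa1 and Ndufb11 did not go together: Ndufa1 was higher by 0.57 in iPSC and 0.56 in gPSC (limma, adjusted p = 0.00188 and 0.00203), while Ndufb11 differed by 0.10 and 0.06 (limma, adjusted p = 0.625 and 0.751).

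Of 5 complex I assembly factors, Ndufaf7, a methyltransferase that modifies a core subunit, was higher in both groups (0.77 in iPSC and 0.63 in gPSC; limma, adjusted p = 0.00584 and 0.016). Ndufaf4 was lower in iPSC (-0.55 ± 0.18; limma, adjusted p = 0.0337), and differed by -0.25 in gPSC (limma, adjusted p = 0.296). The other 3 passed in neither group. For Ndufs4 the result depended on the probe. The brightest probe gave -0.26 in iPSC and -0.14 in gPSC and was not called, whereas the other 3 probes gave 0.28 to 0.50 in iPSC and 0.29 to 0.52 in gPSC and were all called higher. Ndufs5-ps differed by -0.35 in iPSC (limma, adjusted p = 0.0471) and -0.23 in gPSC (limma, adjusted p = 0.172), and whether its probe also binds the Ndufs5 transcript was not tested.

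Complex II, which also serves as succinate dehydrogenase of the tricarboxylic acid cycle, had 3 tested members, of which Sdhd alone was called. Sdhd is a membrane anchor that holds the ubiquinone site. It stood at 9.05, 8.85, 9.07 and 9.15 in iPSC and at 8.57, 8.77, 8.82 and 8.91 in gPSC, against 8.01 and 7.79 in GSC. The difference was 1.13 ± 0.13 in iPSC and 0.87 ± 0.13 in gPSC (limma, adjusted p = 0.000152 and 0.000714). The other anchor, Sdhc, differed by -0.27 and -0.23 (limma, adjusted p = 0.419 and 0.501). The iron-sulfur subunit Sdhb differed by -0.23 and -0.21 (limma, adjusted p = 0.108 and 0.154), but a further probe of Sdhb was called lower, at -0.46 and -0.40. The Sdhd promoter is shown because it holds 3 of the 4 motifs searched for in the member promoters below. The window runs from 250 bases before to 50 bases after the start in RefSeq (GRCm38.p6, chr9:50603800-50604099, minus strand), printed 5′ to 3′. Capitals mark the NRF1 motif, the ETS motif and the ERR motif in that order, with the ETS and ERR motifs on the opposite strand.

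Sdhd: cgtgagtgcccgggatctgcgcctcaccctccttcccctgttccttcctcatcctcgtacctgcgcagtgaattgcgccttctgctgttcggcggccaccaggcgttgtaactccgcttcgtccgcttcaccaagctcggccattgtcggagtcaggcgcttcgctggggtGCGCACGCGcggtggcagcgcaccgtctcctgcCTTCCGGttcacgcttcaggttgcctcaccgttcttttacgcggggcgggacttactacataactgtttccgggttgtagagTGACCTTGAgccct

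Complex III had 6 tested members, and 2 (33.3%) were higher and 2 (33.3%) lower in each comparison with GSC. Of all genes, 19.5% were higher and 24.6% lower in iPSC, and 17.9% and 24.4% in gPSC. Uqcrh, the hinge protein beside cytochrome c1, stood at 11.68, 11.61, 11.47 and 11.64 in iPSC and at 11.63, 11.49, 11.27 and 11.57 in gPSC, against 12.51 and 12.40 in GSC. Its differences were -0.85 ± 0.13 and -0.96 ± 0.13 (limma, adjusted p = 0.000538 and 0.000287). Uqcr11, a small subunit, was lower as well (-0.78 in iPSC and -0.63 in gPSC). Higher were Uqcr10, another small subunit (0.81 in iPSC and 0.73 in gPSC), and Uqcrc2, one of the 2 large core proteins (0.78 and 0.72). The adjusted p-values of these 3 genes by limma lay between 0.000468 and 0.0062. The other core protein, Uqcrc1, differed by 0.35 and 0.14 and was not called (limma, adjusted p = 0.186 and 0.611). Uqcrc1 stood at 10.84 to 11.00 in the 4 iPSC lines, while gPSC had 11.01 and 11.04 in lines 1 and 2 and 10.49 and 10.34 in lines 3 and 4, against 10.50 and 10.66 in GSC.

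Complex IV had 18 tested members. In iPSC 5 (27.8%) were higher and 5 (27.8%) lower than in GSC, where 19.5% of all genes were higher and 24.6% lower. In gPSC 5 (27.8%) were higher and 6 (33.3%) lower, where 17.9% of all genes were higher and 24.4% lower. Cox4i1, the widely expressed form of subunit 4, stood at 12.44, 12.41, 12.43 and 12.49 in iPSC and at 12.61, 12.40, 12.63 and 12.35 in gPSC, against 13.32 and 13.48 in GSC. The difference was -0.96 ± 0.12 in iPSC and -0.90 ± 0.12 in gPSC (limma, adjusted p = 0.000171 and 0.000257). Cox5a, a structural subunit of the matrix side, was higher, by 0.68 and 0.64 (limma, adjusted p = 0.0141 and 0.0194). Cox7b, a small membrane subunit, stood at 6.91, 7.11, 6.67 and 7.23 in iPSC and at 6.65, 6.91, 6.65 and 6.86 in gPSC, against 5.51 in each GSC line. That is a difference of 1.47 ± 0.16 in iPSC and 1.26 ± 0.16 in gPSC (limma, adjusted p = 9.66e-05 and 0.000258). Ndufa4, named for complex I and since assigned to complex IV, was higher by 0.53 and 0.40 (limma, adjusted p = 0.00456 and 0.0204). Cox7a2l, which helps to join complexes III and IV into supercomplexes, was lower in gPSC (-0.57 ± 0.17; limma, adjusted p = 0.0226) and differed by -0.26 in iPSC (limma, adjusted p = 0.244).

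Among the forms of complex IV subunits known from testis, heart, muscle or lung were the 2 members with the largest differences to GSC in either comparison, Cox6b2 and Cox8c. Cox6b2, the testis-type form of subunit 6b, stood at 9.03, 8.68, 9.49 and 9.11 in iPSC and at 8.52, 8.69, 9.42 and 8.05 in gPSC, against 6.22 and 6.03 in GSC. Fib-iPSC had 8.17 and ESC 8.36, so the form named for testis was higher in every pluripotent line than in either germline stem cell line. The difference was 2.96 ± 0.34 in iPSC and 2.55 ± 0.34 in gPSC (limma, adjusted p = 0.000122 and 0.000309). A further, dim Cox6b2 probe, detected on 10 arrays, gave 0.04 and 0.15 and was not called. The widely expressed partner Cox6b1 was 11.35 to 11.67 in iPSC and 11.30 to 11.56 in gPSC, against 11.99 and 12.06 in GSC. Cox6b1 thus differed in the opposite direction, by -0.53 ± 0.13 and -0.64 ± 0.13 (limma, adjusted p = 0.00738 and 0.00268). Without GSC 2, the Cox6b1 difference in iPSC did not pass (limma, adjusted p = 0.0623). A further Cox6b1 probe, detected on all 26 arrays, gave -0.24 in iPSC, which did not pass, and -0.40 in gPSC (limma with every probe tested on its own, adjusted p = 0.193 and 0.0419). The promoters of this pair are shown side by side because the brightest probes of these genes differed in opposite directions. Both are RefSeq windows of GRCm38.p6 on the minus strand, at chr7:4753045-4753344 for Cox6b2 and at chr7:30626065-30626364 for Cox6b1, printed 5′ to 3′. Capitals mark an ETS motif on the opposite strand in Cox6b1, and the Cox6b2 window holds none of the 4 motifs.

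Cox6b2: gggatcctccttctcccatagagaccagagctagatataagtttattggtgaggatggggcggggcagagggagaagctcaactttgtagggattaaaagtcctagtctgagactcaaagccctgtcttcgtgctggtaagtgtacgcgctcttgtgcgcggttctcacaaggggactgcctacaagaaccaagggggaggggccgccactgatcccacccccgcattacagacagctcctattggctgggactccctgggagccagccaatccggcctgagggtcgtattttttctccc

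Cox6b1: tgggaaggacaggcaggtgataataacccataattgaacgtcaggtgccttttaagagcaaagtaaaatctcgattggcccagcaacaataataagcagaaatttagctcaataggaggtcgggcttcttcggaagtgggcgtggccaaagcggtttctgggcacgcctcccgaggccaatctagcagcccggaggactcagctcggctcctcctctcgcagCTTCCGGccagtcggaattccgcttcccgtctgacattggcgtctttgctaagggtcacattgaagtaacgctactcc

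Cox8c, the testis-type form of subunit 8, showed the reverse of Cox6b2. It stood at 5.07, 5.09, 4.997 and 4.72 in iPSC and at 4.44, 5.84, 5.65 and 5.02 in gPSC, against 7.55 and 7.50 in GSC, while ESC had 5.86. The differences were -2.55 ± 0.34 in iPSC and -2.29 ± 0.34 in gPSC (limma, adjusted p = 0.000294 and 0.000589). Its partner Cox8a differed by 0.05 and -0.14 (limma, adjusted p = 0.812 and 0.491). Cox7b2, a further testis-type form, was detected on 3 of the 4 GSC arrays and on none of the iPSC, gPSC, Fib-iPSC or Fibroblast arrays. It was at 4.99 and 4.98 in GSC, close to the lowest signal that counted as detected, which had a median of 4.63 over arrays. The iPSC lines, at 4.23 to 4.37, were therefore at least 1.30-fold lower, and the gPSC lines, at 4.23 to 4.31, at least 1.25-fold lower. Cox7b2 passed the detection filter through GSC alone, and its iPSC and gPSC values were not detected. Its calls are counted above, but their p-values rest on undetected values and are not given. Cox8c was higher in GSC, then, and Cox6b2 was lower in GSC, so these testis-type forms did not share a direction. Cox7b2 is left out of that statement because of the filter.

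The forms known from heart and muscle were Cox7a1 and Cox6a2. Cox7a1 was expressed in all lines and varied more among pluripotent lines than any other member. It stood at 9.34, 8.12, 9.86 and 9.06 in iPSC and at 7.28, 7.77, 9.26 and 7.15 in gPSC, against 8.34 and 8.10 in GSC, and the groups overlapped. The difference to GSC was 0.87 ± 0.61 in iPSC and -0.36 ± 0.61 in gPSC (limma, adjusted p = 0.277 and 0.673). The highest Cox7a1 values of each group were in iPSC 3 and gPSC 3, the lines with the lowest mean of the fibroblast and feeder markers in their groups (4.96 and 5.77), and gPSC 1, with the highest mean (9.03), had 7.28. Of the 11 markers, 7 were detected on both arrays of iPSC 3, 8 in gPSC 3 and 10 in gPSC 1. The same lines, iPSC 3 and gPSC 3, also had the highest mean of the germline markers in their groups (6.84 and 6.01). The part of feeder cells or of germline expression in this result was not tested. Its partner Cox7a2 was higher by 0.85 ± 0.14 in iPSC and 1.02 ± 0.14 in gPSC (limma, adjusted p = 0.00103 and 0.00037). Cox6a2 was detected on 2 iPSC arrays and 2 GSC arrays alone and was not called, while its partner Cox6a1 was lower, with differences of -0.73 and -0.83 (limma, adjusted p = 0.00386 and 0.00197). Cox4i2, the form of subunit 4 known from lung and low oxygen, was detected on 6 of the 8 iPSC arrays and on no other array. Its levels were 5.43, 4.28, 5.35 and 4.94 in iPSC, against 4.24 and 4.29 in GSC, and it was not called. Cox4i2 passed the detection filter through iPSC alone, so its p-values rest on undetected values and are not given.

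**Figure D3:**
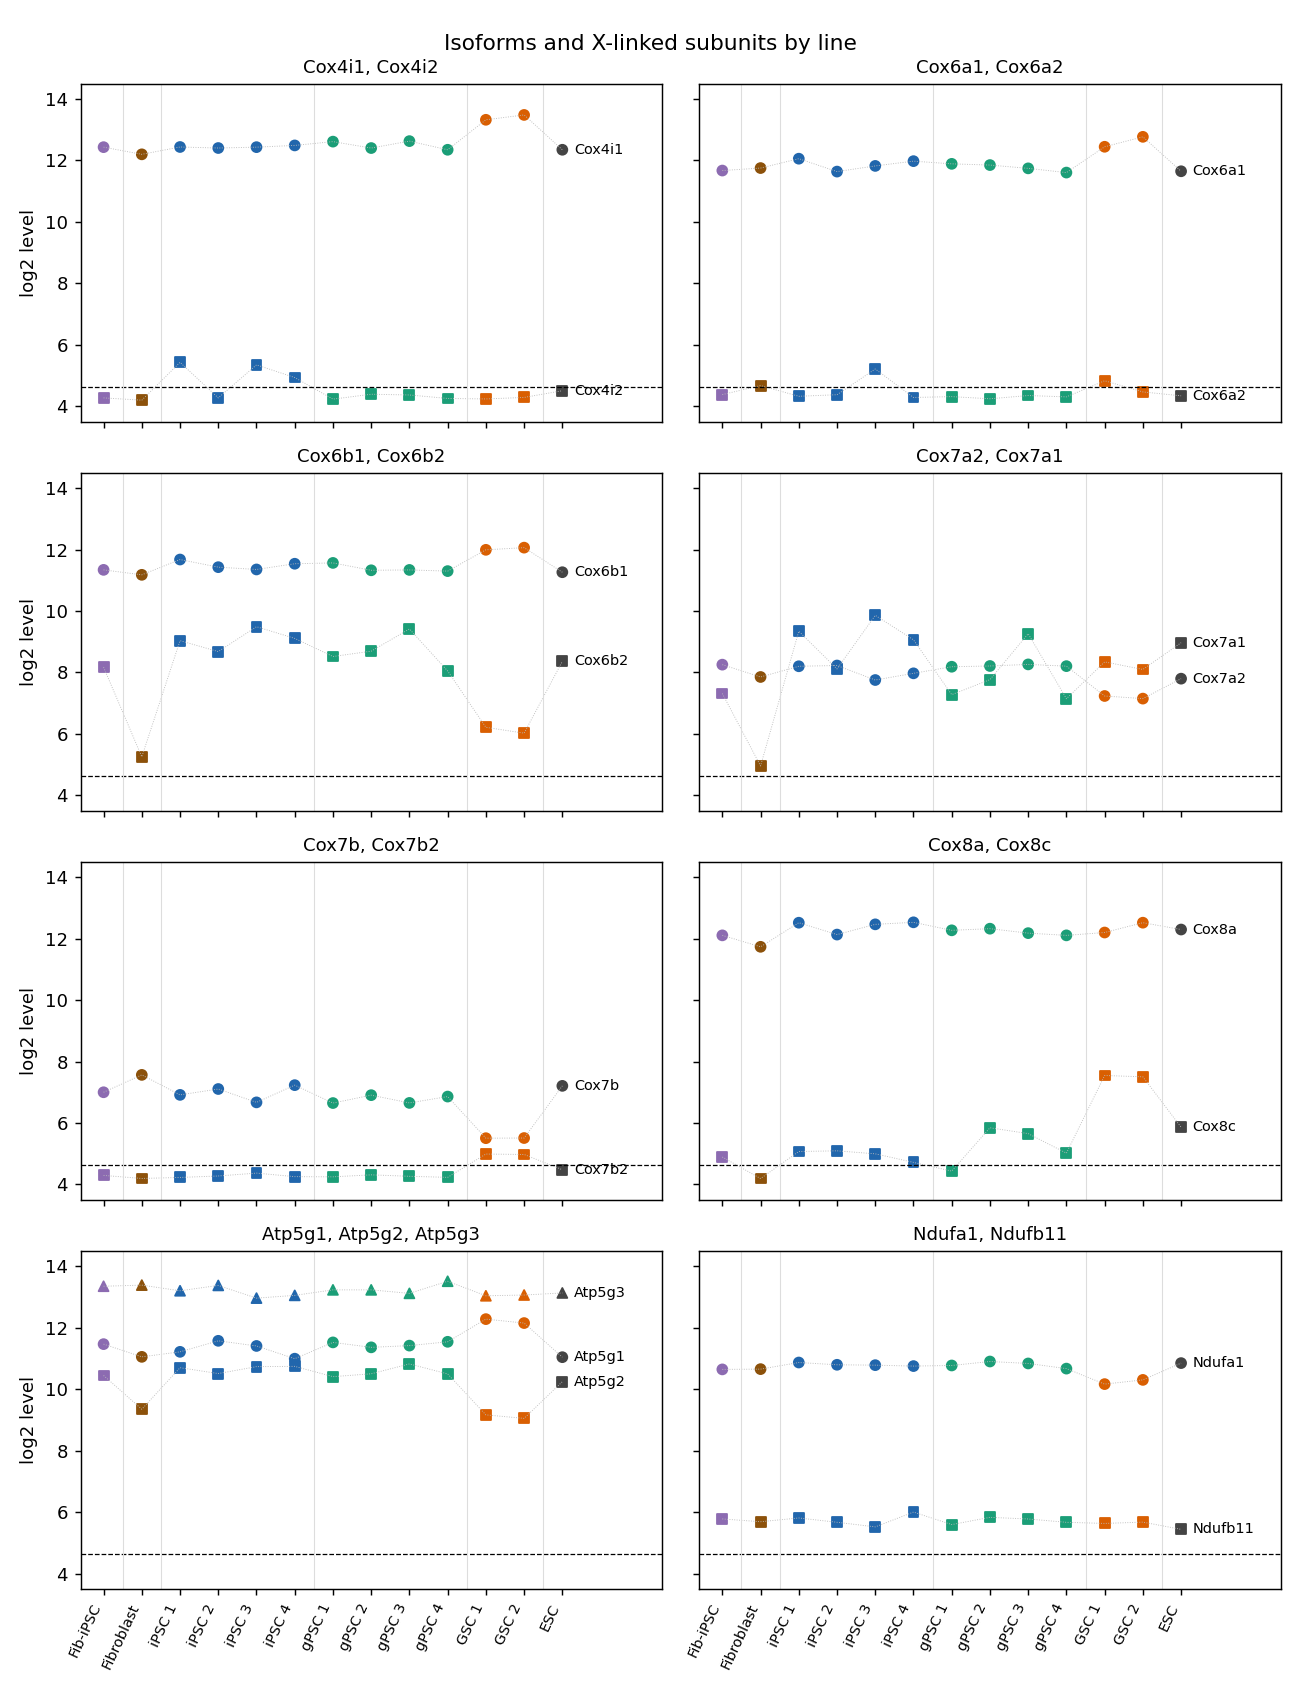
Log2 level (y axis) of the partner forms of complex IV subunits, of the 3 ATP synthase subunit c genes and of the X-linked subunits in each of the 13 lines (x axis, mean of 2 arrays), with the median detection floor of 4.63 as a dashed line. Cox6b2 sits at 8.05 to 9.49 in iPSC and gPSC and at 6.22 and 6.03 in GSC. Cox8c is highest in GSC, as is Cox7b2, which lies close to the floor there and below it in iPSC and gPSC.

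Complex V had 15 tested members, and 5 (33.3%) were higher and 3 (20%) lower in each comparison with GSC. Of all genes, 19.5% were higher and 24.6% lower in iPSC, and 17.9% and 24.4% in gPSC. Subunit c, which forms the rotating ring in the membrane, is encoded by 3 genes whose mature proteins are the same and whose import sequences differ, and these 3 genes went apart. Atp5g2 stood at 10.70, 10.51, 10.73 and 10.74 in iPSC and at 10.40, 10.50, 10.82 and 10.49 in gPSC, against 9.16 and 9.05 in GSC. Atp5g1 stood at 11.21, 11.57, 11.40 and 10.99 in iPSC and at 11.52, 11.36, 11.42 and 11.54 in gPSC, against 12.28 and 12.15 in GSC. All 8 iPSC and gPSC lines were above GSC for Atp5g2 and below GSC for Atp5g1. The Atp5g2 difference was 1.56 ± 0.14 in iPSC and 1.45 ± 0.14 in gPSC (limma, adjusted p = 2.46e-05 and 4.02e-05). For Atp5g1 it was -0.92 ± 0.16 and -0.75 ± 0.16 (limma, adjusted p = 0.00128 and 0.00391). Atp5g3, the third of these genes, differed by 0.10 and 0.22 (limma, adjusted p = 0.64 and 0.262). The promoters of the pair that moved are shown, both from RefSeq GRCm38.p6 on the minus strand and printed 5′ to 3′, at chr15:102670998-102671297 for Atp5g2 and at chr11:96075582-96075881 for Atp5g1. Capitals mark overlapping NRF1 motifs of both strands in Atp5g2, and the Atp5g1 window holds none of the 4 motifs.

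Atp5g2: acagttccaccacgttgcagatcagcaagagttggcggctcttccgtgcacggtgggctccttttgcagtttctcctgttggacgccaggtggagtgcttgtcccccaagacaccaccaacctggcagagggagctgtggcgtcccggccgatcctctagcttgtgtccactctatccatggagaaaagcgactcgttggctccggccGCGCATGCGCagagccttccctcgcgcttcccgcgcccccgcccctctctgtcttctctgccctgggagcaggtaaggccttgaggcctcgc

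Atp5g1: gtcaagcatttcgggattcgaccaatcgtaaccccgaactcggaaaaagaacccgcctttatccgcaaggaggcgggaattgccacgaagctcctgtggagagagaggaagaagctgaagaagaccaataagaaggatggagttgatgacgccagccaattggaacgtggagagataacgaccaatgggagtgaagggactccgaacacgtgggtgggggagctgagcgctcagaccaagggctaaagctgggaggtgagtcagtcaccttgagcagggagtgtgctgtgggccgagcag

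The catalytic head of ATP synthase is a ring of alpha and beta subunits, inside which gamma turns. Atp5b, the beta subunit with the catalytic sites, was 13.60 to 13.88 in iPSC and 13.73 to 13.87 in gPSC, against 13.77 and 13.66 in GSC. Its difference was -0.02 in iPSC, with a 95% interval of -0.27 to 0.23, and 0.08 in gPSC, with an interval of -0.17 to 0.33. Atp5a1, the alpha subunit, was higher by 0.54 ± 0.13 and 0.43 ± 0.13 (limma, adjusted p = 0.00919 and 0.0296). Atp5c1, the gamma subunit, was 11.31 to 11.63 in iPSC and 11.22 to 11.74 in gPSC, against 10.77 and 10.60 in GSC. It was higher by 0.79 ± 0.16 and 0.88 ± 0.16 (limma, adjusted p = 0.0037 and 0.00207). In the peripheral stalk, which holds the head still, Atp5h was higher (0.67 in iPSC and 0.65 in gPSC) and Atp5pb was lower (-0.55 and -0.57), with adjusted p-values by limma between 0.000563 and 0.0213. Atp5j, also of the stalk, was called higher from its brightest probe (0.43 and 0.36), while a dimmer probe gave -0.95 and -0.24 and was not called.

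No member was called between iPSC and gPSC. By limma, 0 of 80 members passed, where 1 of 10660 genes (0.00938%) did. An unadjusted p under 0.05 was found for 4 of the 80 members and for 830 of all 10660 genes. Among them were Cox7a1 (1.23 ± 0.49 in iPSC minus gPSC), Sdhd (0.26 ± 0.11) and Ndufa10 (-0.28 ± 0.11), each with an adjusted p of 0.627 by limma. The remaining member was Cox4i2, which no gPSC array detected and which was at least 1.26-fold higher in iPSC. It passed the detection filter through iPSC alone, so its p-value rests on undetected values and is no support for a difference. The 95% intervals of the difference reached a median of 0.258 log2 units to either side, and from 0.167 to 1.11 over the members. For Cox7a1 the interval was 0.12 to 2.34. Against ESC, with 1 line, 0 of 80 members were called in iPSC, where 0.263% of all genes were, and 0 in gPSC, where 0.281% of all genes were. At an unadjusted p under 0.05 there were 3 of 80 members in iPSC and 2 in gPSC, where 581 and 620 of all 10660 genes were. In iPSC these were Atp5e (0.67 ± 0.22), Atp5g2 (0.43 ± 0.18) and Ndufaf4 (-0.55 ± 0.23), and in gPSC they were Atp5a1 (-0.40 ± 0.17) and Cox7a2 (0.42 ± 0.18). Intervals against ESC reached a median of 0.408 log2 units to either side. A call also had to pass the adjustment over all genes, so differences well above that size could go uncalled. The largest uncalled member differences were -0.89 in iPSC and -1.11 in gPSC.

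GSC and ESC differed in 33 of 80 members. In GSC 17 members (21.2%) were higher and 16 (20%) lower than in ESC by limma, where 16.4% of all genes were higher and 13.4% lower. At least 2-fold differences were called for 13 members, 5 higher and 8 lower, where 20.5% of all genes were called in either direction. This comparison uses the same GSC lines as those above. Higher in GSC by at least 2-fold were Cox8c (1.66), Ndufb9 (1.32), Atp5g1 (1.17), Uqcrh (1.06) and Cox4i1 (1.05). Cox8c stood at 7.55 and 7.50 in GSC, against 5.86 in ESC (limma, adjusted p = 0.0277), and this call ended without either GSC line (limma, highest adjusted p = 0.0924). Lower by at least 2-fold were Cox6b2 (-2.24), Cox7b (-1.70), Ndufb2 (-1.53), Atp5g2 (-1.14), Atp5c1 (-1.10), Ndufb5 (-1.09), Ndufa12 (-1.05) and Sdhd (-1.01). Without GSC 1 or without GSC 2, 22 members were called in each case, while calls over all genes fell from 3174 to 1946 or 2059.

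Fibroblast, with 1 line, was set against the mean of the iPSC and gPSC groups. In Fibroblast 8 members (10%) were higher and 16 (20%) lower by limma, where 21.1% of all genes were higher and 19.4% lower. Differences of at least 2-fold were called for 8 members, 2 higher and 6 lower, where 25.6% of all genes were called. The median difference was -0.16 over the members and -0.07 over all genes. In complex IV, 1 of 18 members (5.56%) was higher, Cox7b, and 6 (33.3%) were lower, beside the 21.1% and 19.4% of all genes. Cox6b2 stood at 5.25 in Fibroblast, against 8.05 to 9.49 in the 8 iPSC and gPSC lines (-3.62 ± 0.41; limma, adjusted p = 0.000193). Cox7a1 stood at 4.96 in Fibroblast, against 7.15 to 9.86 in those lines (-3.52 ± 0.74; limma, adjusted p = 0.00492). Cox7c, a small membrane subunit, differed by -0.98 ± 0.14 (limma, adjusted p = 0.000588) and Cox8a by -0.58 ± 0.18 (limma, adjusted p = 0.0298).

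In complex I, Ndufs6, an accessory subunit of the NADH-binding module, stood at 11.04 in Fibroblast, against 11.99 to 12.26 in the iPSC and gPSC lines. The difference was -1.13 ± 0.13 (limma, adjusted p = 0.00018). Ndufa6 (-1.03), Ndufaf7 (-1.16), Ndufv3 (-0.92) and Ndufv1 (-0.76) were lower as well, with adjusted p-values by limma of 0.0277, 0.00249, 0.0222 and 0.00546. Ndufab1, the mitochondrial acyl carrier protein, was higher: it stood at 6.57 in Fibroblast, against 4.74 to 5.56 in the iPSC and gPSC lines (1.47 ± 0.25; limma, adjusted p = 0.00175). Atp5o, the subunit that joins the stalk to the head of ATP synthase, stood at 9.02 in Fibroblast, against 7.46 to 8.28 in those lines (1.14 ± 0.26; limma, adjusted p = 0.00709). Atp5g2 was lower (9.34 in Fibroblast, against 10.40 to 10.82; -1.27 ± 0.17; limma, adjusted p = 0.000387), and Sdhb was higher by 0.52 ± 0.13 (limma, adjusted p = 0.0122).

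The change from source cell to induced pluripotent cell was then compared between the germline and the fibroblast source, a contrast chosen after the data were seen. The difference between the 2 effects was called by limma for 18 of 80 members (22.5%), where 30.9% of all genes were called, and the fibroblast effect rests on 1 line on each side. Cox6b2 had nearly the same effect from both sources, 2.96 in iPSC minus GSC and 2.92 in Fib-iPSC minus Fibroblast (difference 0.04 ± 0.64). Atp5g2 was 1.56 from GSC and 1.10 from Fibroblast (difference 0.47 ± 0.26; limma, adjusted p = 0.212). For Cox7b the effects had opposite signs, at 1.47 from GSC and -0.57 from Fibroblast (limma, adjusted p = 0.0015 for the difference). Ndufv1 was -0.72 from GSC and 0.94 from Fibroblast (limma, adjusted p = 0.0016), as Fib-iPSC stood at 11.58 against 10.64 in Fibroblast. Cox8c, at -2.55 from GSC, was detected on no Fibroblast array. With undetected values raised to the lowest detected signal of their array, an alternative chosen after the data were seen, its effect from Fibroblast was 0.10 and the difference was called (limma, adjusted p = 0.00994). Cox7b2, also among the 18, was detected on no iPSC, Fib-iPSC or Fibroblast array, and with raised values its difference did not pass (limma, adjusted p = 0.0908). In all, 23 of 80 members were called with raised values, among them 17 of the 18. Over all 10660 genes, 3229 were called with raised values and 3289 without. Cox7a1 was 0.87 from GSC and 2.36 from Fibroblast, but that difference of -1.48 ± 1.16 did not pass (limma, adjusted p = 0.376).

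**Figure D4:**
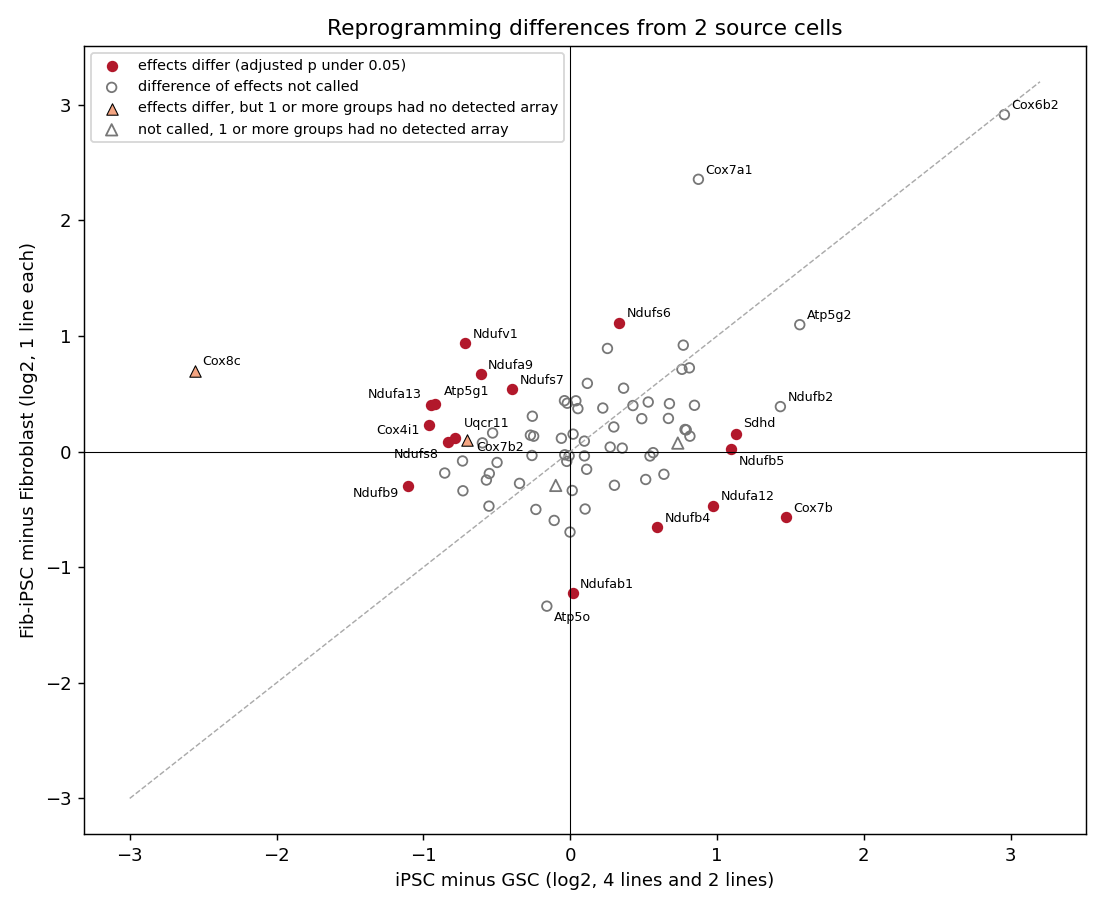
Log2 difference of each tested member in Fib-iPSC minus Fibroblast (y axis, 1 line each) against iPSC minus GSC (x axis, 4 and 2 lines), with the 18 members whose effects differed by limma filled, triangles for members that one or more of the 4 groups did not detect on any array, and a dashed line of equal effects. Cox6b2 lies at 2.96 and 2.92, near equal effects, while Cox7b and Ndufv1 have opposite signs on the axes. The filled triangles, Cox8c and Cox7b2, rest on levels that were not detected.

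Respiratory chain genes are known to be regulated by the factors NRF1, the ETS family member GABP, YY1 and the estrogen-related receptors (ERR). The RefSeq promoter windows of GRCm38.p6, 300 bases each, were searched on both strands for GCGCANGCG (NRF1), CCGGAAG (ETS), AAGATGGCG (YY1) and TCAAGGTCA (ERR). Promoters were found for 70 of the 85 members, 75 in all. The NRF1 motif was in 26.7% of the member promoters and 6.25% of all 32851 promoters. The ETS motif was in 22.7% and 8.86%, the YY1 motif in 9.33% and 1.4%, and the ERR motif in 2.67% and 0.423%. At least 1 of the 4 was in 48% of the member promoters and 15.2% of all. The NRF1 motif was in 19% of 21 promoters of members called higher than GSC in both iPSC and gPSC. It was in 15.4% of 13 promoters of members lower in both and 34.1% of the other 41. For any of the 4 motifs, the shares in that order were 28.6%, 53.8% and 56.1%. Whether a motif goes with the direction of a member was not tested. Windows of one gene can overlap, and a match of letters does not show that a factor binds there.

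Genes around the chain were described with lists of linked pathways. A list around the tricarboxylic acid cycle, which supplies NADH and succinate, had 16 tested genes. Besides cycle enzymes it held Pdha1, Pdhb and Dlat of pyruvate dehydrogenase and the kinase Pdk1, so its counts are not those of the cycle alone. Of the 16 genes, 8 were higher and 1 lower in iPSC than in GSC, and 8 were higher and 0 lower in gPSC. Over all genes, 19.5% were higher and 24.6% lower in iPSC and 17.9% were higher and 24.4% lower in gPSC, and the counts of the lists below stand against the same shares. The median difference over these 16 genes was 0.47 in iPSC and 0.49 in gPSC, against -0.02 and 0.01 over all genes. Idh2, the mitochondrial isocitrate dehydrogenase that uses NADP, stood at 10.47, 10.04, 10.99 and 10.54 in iPSC and at 9.59, 10.30, 10.97 and 9.77 in gPSC, against 5.48 and 6.14 in GSC. That is 4.70 ± 0.39 in iPSC and 4.35 ± 0.39 in gPSC (limma, adjusted p = 2.04e-05 and 3.36e-05). Idh3a, of the NAD-linked isocitrate dehydrogenase, was higher by 1.99 and 2.21, and Pdha1, of pyruvate dehydrogenase, by 1.85 and 1.87.

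Of 9 tested electron carriers and linked dehydrogenases, 3 were higher and 2 lower in each comparison. Gpd2, the mitochondrial glycerol-3-phosphate dehydrogenase that feeds ubiquinone, was 9.27 to 9.75 in iPSC and 9.55 to 9.88 in gPSC, against 5.68 and 5.99 in GSC. It was higher by 3.64 ± 0.16 and 3.86 ± 0.16 (limma, adjusted p = 5.76e-07 and 4.84e-07). Etfb, a subunit of the electron transfer flavoprotein, was higher by 2.22 and 2.21, and Dhodh, a ubiquinone-linked enzyme of pyrimidine synthesis, by 1.21 and 1.63. Of 13 assembly factors of complexes III and IV, 1 was higher and 3 lower in iPSC, and 3 were higher and 3 lower in gPSC. Among them, the copper chaperone Cox17 was higher by 0.78 and 0.68, while Ttc19 differed by -1.05 and -1.24 and Cox11 by -1.002 and -1.03. Of 3 factors of ATP synthase assembly and inhibition, 1 was higher in iPSC and 2 in gPSC, among them the inhibitor Atpif1 (0.44 and 0.40).

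Of 13 regulators of mitochondrial biogenesis, 4 were higher and 4 lower in each comparison. Esrrb, an estrogen-related receptor that is also a pluripotency gene and one of the marker genes above, was higher by 5.41 in iPSC and 5.21 in gPSC. The mitochondrial transcription factor Tfb1m was higher by 1.31 and 1.40, and Polg, the mitochondrial DNA polymerase, differed by -0.95 and -1.33 (limma, adjusted p = 0.015 and 0.00282).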

How the data were processed

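RNA was amplified to biotinylated cRNA and hybridised to Illumina BeadChips, per the labels' protocols. BeadStudio 3.2 and lumi are named per the submitters' processing notes, with no role given. The deposited table holds the raw intensity of 25697 probes on 26 arrays, per the file headers, with a detection p-value beside each intensity. The authors also deposited processed values on a log2 scale, quantile normalized across arrays, as the identical sorted values of all arrays show, which were used as an alternative. The genome build is not given in the sources used here. Intensities were background-corrected and normalized by the neqc function (offset 16) of limma 3.58.1, run in R 4.3.3, and the arrays of a line were averaged. A probe was kept if its detection p was below 0.05 on each of the 2 arrays of any line, which left 14948 named probes. Of all probes, 23978 named 1 gene and 1719 named none. For genes with several probes, 16 members included, the brightest was used. The limma model had a mean for each group and used all 13 lines and 10660 genes, with 7 residual and 9.29 moderated degrees of freedom. Single-line groups are assumed to vary like the others. Calls required a two-sided p below 0.05 after Benjamini-Hochberg adjustment over all genes. A fold written as "at least" is a lower bound, for which the level of a group with no detected array was raised to the lowest detected signal of each array. The number of lines and arrays limits the precision. The code was tested on simulated data.

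The members and gene lists were chosen with earlier results of these data known. Named with values were members with a 2-fold call, the 10 largest called differences of each comparison, tissue-type forms with their partners, X-linked subunits, catalytic or core subunits, and up to 3 called genes of each neighbouring list. Ndufs3, Ndufs4, Ndufs7, Ndufs8, Ndufv2, Ndufa9, Ndufa13, Ndufaf4, Ndufs5-ps, Sdhc, Uqcr10, Uqcr11, Uqcrc2, Atp5h, Atp5j, Atp5pb, Ndufb3, Ndufb4, Ndufb6, Ndufb7, Ndufb8, Ndufb10, Ndufaf3 and Atp5e were named after their values were seen. Alternatives covered background correction, the authors' values, the detection filter, the choice of probe, the handling of the 2 arrays of a line and each line left out. No paired analysis by line number was made, because line numbers are names only.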

Additional observations from a re-analysis of the deposited data

Results flagged for a closer look

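In the groups of 4 lines, 1 line stood far from the other 3 in 5 of the 80 groups examined, where chance would give about 4. These were Cox6b1 in gPSC 1 at 11.5645 against 11.298 to 11.3365 in the other gPSC lines, Cox8a in iPSC 2 at 12.1302 with the remaining iPSC lines between 12.4631 and 12.5291, and Cox6a2 in iPSC 3 at 5.21602 against 4.28924 to 4.37891. Ndufa10 in gPSC 1 was at 10.5006 against 10.6053 to 10.6195 in the other gPSC lines, and Ndufab1 in gPSC 4 at 5.55735 against 5.12456 to 5.19692. Chance sets 1 line apart in about 1 in 20 such groups.

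For 12 of the 40 members named by rule, the effect of iPSC minus GSC differed from that of Fib-iPSC minus Fibroblast by limma. These members were named partly for their large called differences, and 30.9% of all genes were called in this contrast. The germline effect was above the fibroblast effect by 2.03791 for Cox7b, 1.44433 for Ndufa12, 1.24664 for Ndufab1, 1.07486 for Ndufb5 and 0.981092 for Sdhd. The germline minus the fibroblast effect was -3.25302 for Cox8c, -1.65275 for Ndufv1, -1.33206 for Atp5g1, -1.19434 for Cox4i1, -0.800924 for Ndufb9, -0.799964 for Cox7b2 and -0.780202 for Ndufs6. Cox8c was detected on no Fibroblast array and Cox7b2 on no iPSC, Fib-iPSC or Fibroblast array, so their values give no size. With undetected values raised to the lowest detected signal of their array, they were -2.65 for Cox8c (limma, adjusted p = 0.00994) and -0.28 for Cox7b2 (limma, adjusted p = 0.0908). The fibroblast effect rests on 1 line on each side, and the cause of these differences was not tested.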

How the results depend on the processing

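Counts of called members stayed within 1.5 times under every alternative run. With the replicate block (array letter a or b, with line as a random block), 39 members were called in iPSC versus GSC (38 of the 45 kept), 40 in gPSC versus GSC (38 of 42 kept), 30 in GSC versus ESC (26 of 33 kept) and 21 in Fibroblast versus iPSC and gPSC (19 of 24 kept). In that order, the authors' processed values gave 40, 34, 23 and 21, and the b arrays alone 37, 36, 30 and 23. Over all 10660 genes, the main model called 4708, 4516, 3174 and 4319, and the replicate block 4978, 4833, 3555 and 4553. The authors' values called 4720, 4491, 2985 and 4398 of all genes, and the b arrays alone 4365, 4241, 2847 and 4105. With the authors' values, member counts thus fell from 45, 42, 33 and 24, while counts over all genes changed less. Leaving out 1 line gave 30 to 46, 29 to 45, 22 to 35 and 23 to 27 called members. The lowest counts of the comparisons with GSC came where a GSC line was left out, as they did over all genes. No alternative called a member in iPSC versus gPSC, iPSC versus ESC or gPSC versus ESC. The median over the members moved by more than the SD between lines (0.0556) with the b arrays alone, to -0.0286 in iPSC versus GSC, -0.0897 in gPSC versus GSC and 0.0499994 in GSC versus ESC, and to -0.0928 in GSC versus ESC with every probe tested on its own. The cause was not tested. The mean of all detected probes turned Atp5j round, to -0.26 in iPSC versus GSC (limma, adjusted p = 0.527) and 0.60 in Fibroblast versus iPSC and gPSC (limma, adjusted p = 0.226), since its probes go opposite ways.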
